A study of Caenorhabditis elegans with 4 samples.

Results

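The centre of chromosome II of Caenorhabditis elegans held 544 LIN-13 peaks, 9.89% of the 5502 peaks of the genome on 7.14% of the spanned length. Members were all peaks on II whose midpoint lay from 4879000 to below 12020000 (WormBase WS180), the stretch between the boundaries set by a recombination map. Peaks are regions in which chromatin immunoprecipitation sequencing (ChIP-seq) gave more reads than input DNA, sonicated chromatin that was not precipitated. The ChIP DNA came from whole embryos of hermaphrodite strain OP51, genotype unc-119(ed3) III with the transgene wgIs73, which carries lin-13::TY1::EGFP::FLAG together with unc-119(+). Worms were grown at 20 °C, embryos were fixed with 2% formaldehyde, and tagged chromatin was pulled down by goat anti-GFP antibodies. The input DNA came from the same strain and stage, so both kinds of library carry the transgene. The transgene was introduced by particle bombardment, and no untagged strain is among the samples. The labels give 2 replicates of ChIP DNA and 2 of input DNA, which the authors combined in 1 list. Binding was averaged over the cell types of the embryo.

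LIN-13 is a large zinc-finger protein of the nucleus and a member of the synMuv B genes, which together with LIN-35, the worm Rb protein, keep vulval and other developmental genes silent. It is known to work with the heterochromatin protein HPL-2. The chromosomes of C. elegans have no single centromere. Their centres recombine rarely and are rich in conserved, broadly expressed genes, while the arms recombine often and are rich in repeats and in heterochromatin marks.

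Each peak carries a position and a q-value, the adjusted p-value that the authors' peak caller gave it. A peak is called stronger than another where its q-value is smaller. The list does not state read numbers, and nothing in it measures the spread between replicates. The comparisons below are therefore descriptions of 1 list without a test, and their 95% intervals cover counting error only, as if peaks were independent of each other. The q-values imply that the authors' list kept 20.9% of the regions it was drawn from, as explained with the read numbers. No peak was assigned to a gene, since no annotation of this build was used.

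LIN-13 peaks were denser in the II centre than in the centre of each other chromosome, and they were spread over its whole length. The density was 76.2 peaks per Mb (95% interval 69.9 to 82.9) over 7.14 Mb, and the peaks covered 184 kb, or 2.57% of the sequence. A density above the 55.0 peaks per Mb of the whole list was not particular to the centre, since the II arms had 94.7. The arms of the other chromosomes were not counted separately. The centres of the other 5 chromosomes together had 40.9 peaks per Mb (38.9 to 42.9) with 1.64% of the sequence covered. The ratio of the II centre to these was 1.86 (1.69 to 2.05) in peaks and 1.57 in covered base pairs. Taken singly, the density ratio was 1.45 (1.27 to 1.66) against the centre of I, which had 52.5 peaks per Mb, and 1.66 (1.46 to 1.88) against that of V, which had 46.0. It was 2.02 (1.76 to 2.31) against IV, with 37.8 peaks per Mb, 2.22 (1.89 to 2.61) against X, with 34.4, and 2.48 (2.11 to 2.93) against III, with 30.7.

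The II centre also stood above the others in single windows. Counted in 1 Mb windows from the left boundary, the II centre held 68, 74, 76, 63, 80, 79 and 87 peaks, and its last 0.141 Mb held 17. The fewest lay in the window from 7879000 to 8878999 and the most in that from 10879000 to 11878999. The 38 such windows of the other centres ranged from 21 to 64 peaks with a median of 43. Only 1 of them, on I, reached the 63 peaks of the sparsest II window, and none reached the II median of 76. Windows thus overlapped between II and I at a single window and did not overlap between II and III, IV, V or X.

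**Figure D1:**
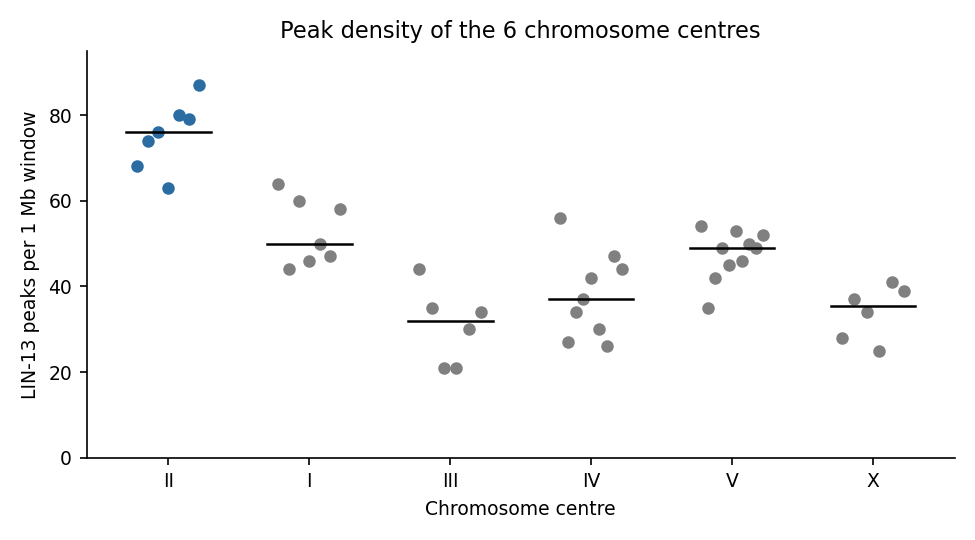
LIN-13 peaks in each whole 1 Mb window of the 6 chromosome centres (points, in order along each centre) with the median of each centre (bar). The 7 windows of II hold 63 to 87 peaks, and of the 38 windows of the other centres only 1, on I with 64, is not below all of them.

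The excess over the other centres was also present among strong peaks. Members with a q-value under 1e-10 numbered 77, or 10.8 per Mb, against 6.37 per Mb in the other 5 centres, a ratio of 1.69 (1.29 to 2.19), in a list of which 13.9% passes that limit. For a q-value under 1e-20 the members numbered 27, or 3.78 per Mb, against 2.01 per Mb in the other centres, a ratio of 1.88 (1.17 to 2.95), and 4.33% of the list passes. Against single centres the interval of the ratio at 1e-10 spanned 1 for I, at 1.29 (0.909 to 1.84). At 1e-20 it spanned 1 for I, at 1.60 (0.840 to 3.12), and for X, at 2.00 (0.979 to 4.33).

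Relative to its own arms the II centre had fewer peaks. The arms held 770 peaks, or 94.7 per Mb (88.1 to 102), of which 449 lay on the left arm at 92.03 per Mb and 321 on the right arm at 98.7 per Mb. The ratio of centre to arms was 0.805 (0.72 to 0.899). The difference was small in covered sequence, with 2.57% in the centre against 2.69% on the arms, a ratio of 0.957. This pooled value joins a covered ratio of 1.02 to the left arm with one of 0.873 to the right arm. For q-values under 1e-10 the density ratio was likewise 1.05 (0.728 to 1.53) to the left arm and 0.731 (0.503 to 1.07) to the right arm. Among peaks with a q-value under 0.001 the ratio was 0.915 (0.792 to 1.06), and among those under 1e-20 it was 0.992 (0.57 to 1.72), with 1.23 (0.631 to 2.49) to the left arm and 0.769 (0.40 to 1.53) to the right arm. Narrow peaks, under 100 bp, were 7.17% of the peaks in the centre and 16.2% on the arms, against 8.91% in the whole list.

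No sharp step marked the left boundary. The first 1 Mb window of the centre held 68 peaks, and the 1 Mb of the arm just outside it held 70. At the right end the last whole window of the centre held 87 peaks, and the 1 Mb of the arm beyond the boundary held 95. The 0.141 Mb of the centre between them held 17, or 121 per Mb. The first peak inside the left boundary, from 4902169 to 4902246, had a q-value of 0.00839, and the last outside, from 4858080 to 4858096, had 0.00395. At the right boundary the last peak inside, from 12006654 to 12006898, had a q-value of 8.89e-07, and the first outside, from 12023363 to 12023619, had 0.00187.

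On a finer scale the density along the centre was uneven. In 250 kb windows the number of peaks ran from 10 to 32 with a median of 18. The fullest window, from 8879000 to 9128999, was followed in number by those from 6629000 to 6878999 with 30 peaks and from 7629000 to 7878999 with 29. The sparsest lay from 5879000 to 6128999 and held 10 peaks, and the window to its right held 11. In 100 kb windows the range was 1 to 18. Windows with a single peak began at 6079000, at 9379000 and at 9779000, and that with 18 peaks began at 6779000.

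The number of strong peaks varied between the fullest windows. The 250 kb window with 32 peaks held 5 with a q-value under 1e-10, that with 30 held 1 and that with 29 held 2. The windows from 11379000 to 11628999 and from 11629000 to 11878999, chosen after their values were seen, held 8 and 6 such peaks among 24 and 19. Each of the other 26 windows held 0 to 5. This 500 kb stretch thus carried 14 of the 77 strong members. Spearman's rho between the number of peaks and the number of strong peaks was 0.26 across the 28 windows, where a strong peak counts in both numbers.

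**Figure D2:**
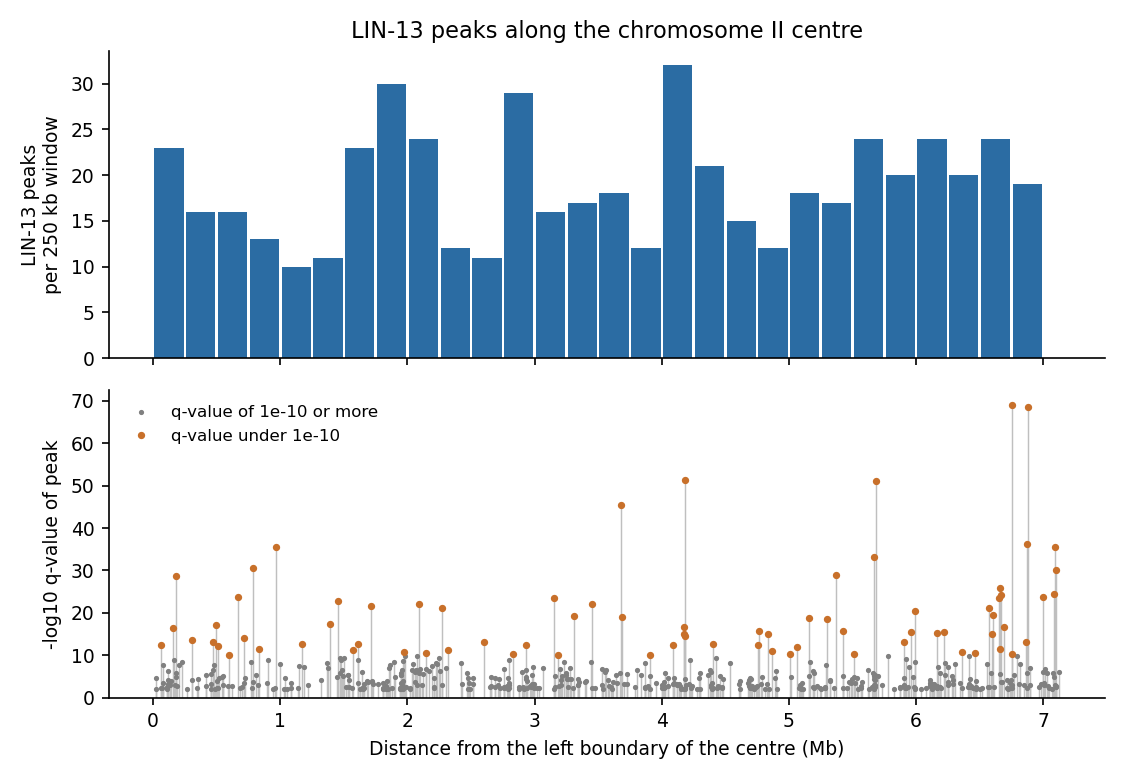
Upper panel, LIN-13 peaks in 250 kb windows along the chromosome II centre, by distance from its left boundary in Mb. Lower panel, the -log10 q-value of each of the 544 peaks, with the 77 under 1e-10 in orange, whose highest values stand near the right end.

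As a class, the members were about as strong as the whole list, which includes them. Of the 544 members, 77 (14.2%, 11.3 to 17.4) had a q-value under 1e-10, against 13.9% of the whole list, and 27 (4.96%) had one under 1e-20, against 4.33%. Members among the 2751 strongest peaks numbered 291 (53.5%, 49.2 to 57.7), where the list has 50% by construction. The other 5 centres had 15.6% of their peaks under 1e-10, 4.90% under 1e-20 and 55.2% among the 2751 strongest. The median q-value was 1.79e-04 in the II centre, 1.28e-04 in the other 5 centres and 5.51e-04 on the II arms. The shares of the II centre lie near the background of the list.

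The strongest member lay from 11633873 to 11635362, was 1490 bp wide and had a q-value of 1.10e-69, rank 9 in the list. It was followed by a short peak of 495 bp from 11759154 to 11759648 with 4.11e-69, at rank 10. Next came the peak from 9059802 to 9061306, 1505 bp wide with 4.25e-52, and that from 10563136 to 10563697, 562 bp wide with 9.47e-52. No other member had a q-value under 1e-50, so these 4 stand at the top of the centre.

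The next 6 members lay towards both ends and in the middle of the centre, with none between 5845332 and 8561195. They began with a peak of 354 bp from 8561195 to 8561548 with a q-value of 3.13e-46. The peak from 11749184 to 11750295 had 4.87e-37, that from 5844535 to 5845332 had 2.68e-36 and that from 11967355 to 11967802 had 2.84e-36. The peak from 10548657 to 10549708 had 8.26e-34, and that from 5660962 to 5663314 had 2.41e-31. Of the 10 strongest members, 3 lay in the 500 kb from 11379000 to 11878999. The median width of the 10 was 925 bp, and 4 of them were under 600 bp wide.

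In 1 Mb windows, the strongest peaks of windows 2 and 3 were weaker than those of the other windows. They lay from 6331352 to 6331772 with a q-value of 1.52e-23 and from 6968107 to 6968720 with 9.07e-23. In every other window and in the final 0.141 Mb, the strongest peak was a member already named. The strongest peak of the II centre ranked behind that of 4 other centres. The smallest q-value was 4.94e-95 on I, 9.29e-79 on X, 5.46e-77 on IV and 2.77e-72 on III, and it was 4.65e-52 on V. The positions of these peaks were 9988512 to 9989442 on I, 11605071 to 11606553 on X, 7485865 to 7486981 on IV, 3867377 to 3867750 on III and 10341768 to 10342705 on V.

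The stretch from 11379000 to 11878999 combined wide and short strong peaks. Besides the members at 11633873, 11749184 and 11759154, it held a group of 3 strong peaks that began at 11534497, 11535302 and 11536958, with q-values of 3.05e-24, 2.83e-12 and 1.76e-26. The last of these was 1278 bp wide. Short strong peaks of 330, 348 and 348 bp began at 11452965, 11484519 and 11545234, with q-values of 5.98e-22, 3.53e-20 and 5.34e-25. A peak of 492 bp at 11874541 had 1.45e-24.

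Members were of intermediate width between the other centres and the II arms. The median width was 295.5 bp (quartiles 209 and 396 bp) in the II centre, 336 bp in the other 5 centres and 225.5 bp on the II arms. Single centres had medians of 324 bp on I, 319 bp on III, 331 bp on IV, 323.5 bp on V and 409 bp on X, each above that of II. Of the members 39 (7.17%) were narrower than 100 bp, 243 were from 100 to under 300 bp, 186 from 300 to under 500 bp, 62 from 500 bp to under 1 kb, and 14 (2.57%) were 1 kb or wider. In the whole list 8.91% were narrower than 100 bp and 2.69% were 1 kb or wider. In the other 5 centres 4.41% were narrower than 100 bp and 3.13% were 1 kb or wider. Peaks from 500 bp to under 1 kb made up 20.0% there and 11.4% in the II centre.

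The widest member, from 5660962 to 5663314, was 2353 bp wide and number 10 by strength. The members at 9059802 and 11633873 came next, and then 1443 bp from 9890115 to 9891557 with a q-value of 3.64e-11 and 1301 bp from 6935534 to 6936834 with 9.27e-07. The q-values of these 5 widest members thus spanned 1.10e-69 to 9.27e-07. At the other extreme, 11 members were 4 to 13 bp wide, with q-values of 0.00284 to 0.00946. The narrowest, of 4 bp, lay from 10304899 to 10304902. Across the 544 members Spearman's rho between width and −log10 q-value was 0.58, and within the other centres it was 0.35 on III, 0.44 on IV, 0.45 on X, 0.46 on V and 0.50 on I. Width and q-value come from the same reads, and peaks are not independent replicates.

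**Figure D3:**
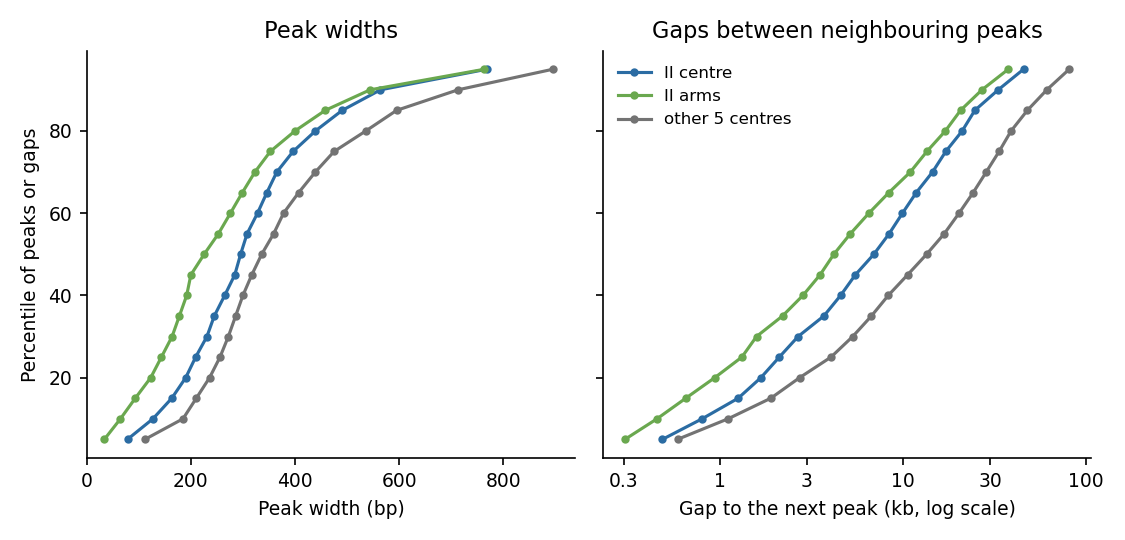
Percentiles (steps of 5) of peak width in bp and of the gap to the next peak in kb, on a log scale, for the II centre, the II arms and the other 5 centres. At the median the II centre lies between the II arms and the other 5 centres in both panels, with 295.5 bp and 6958 bp.

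Peaks in the II centre were mostly several kb apart. The median gap between neighbours was 6958 bp (quartiles 2119 and 17199 bp), against 13512.5 bp in the other 5 centres and 4207.5 bp on the II arms. Gaps over 50 kb made up 3.68% of those in the II centre and 13.9% of those in the other centres. A neighbour within 2 kb, midpoint to midpoint, was found for 179 members (32.9%, 29.0 to 37.03), against 32.8% in the whole list, 24.2% in the other centres and 48.7% on the II arms. Gaps and neighbour shares depend on peak density, which differed between these sets. Whether peaks grouped more closely than their density implies was not tested. The longest stretch without a peak was 102132 bp, between the peak from 9787932 to 9787982 and that from 9890115 to 9891557. The smallest gap, 208 bp, separated the member at 9059802 from the peak from 9061515 to 9062563, which had a q-value of 3.06e-15.

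Strong peaks made up similar shares of the members with and without a close neighbour. Of the 179 members with a neighbour within 2 kb 26 (14.5%) had a q-value under 1e-10, and of the 365 without one 51 (13.97%) had. By other measures the members with a close neighbour were weaker. Their median q-value was 3.41e-04, against 1.04e-04 without one, and 88 of 179, against 203 of 365, were among the 2751 strongest peaks of the list. The median ratio of ChIP to input reads, explained below, was 2.47 with and 2.78 without a close neighbour. No test was run on these differences. The median width was 309 bp with and 292 bp without a close neighbour. Of the 14 members of 1 kb or more, 10 had a close neighbour. Spearman's rho between the −log10 q-value of a member and of the next along the chromosome was -0.0078 over 543 pairs.

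Joining members separated by gaps of under 2 kb left 333 single peaks, 61 pairs and 20 longer runs. The 3 longest runs were looked at after their sizes were known. The longest, of 10 peaks from 6823279 to 6834240, spanned 10962 bp, 45.4% of it within peaks. None of its peaks had a q-value under 1e-10, and the smallest, 1.51e-06, belonged to a peak of 1050 bp. A run of 8 peaks from 9054531 to 9065309 held the member at 9059802 and 3 others with q-values under 1e-10. It also held the member with the largest q-value, 0.00996, from 9065049 to 9065309. The other run of 8 peaks, from 10545030 to 10555931, held the member at 10548657, and its other 7 peaks had q-values of 1e-10 or more. The runs of 8 spanned 10779 and 10902 bp, close to the longest run, while the smallest q-values of the 3 runs were far apart.

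**Figure D4:**
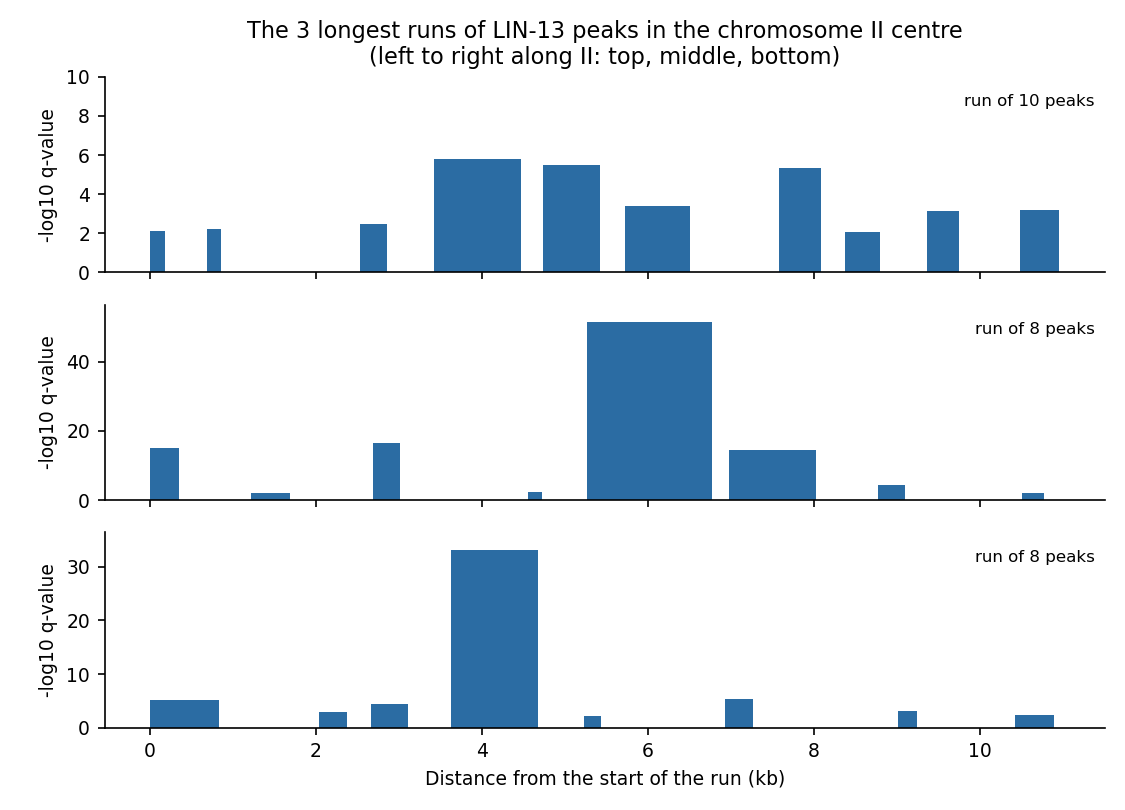
The 3 longest runs of LIN-13 peaks in the chromosome II centre, each bar a peak drawn over its own width, by distance from the start of the run in kb, with -log10 q-value as height on axes that differ between panels. The run of 10 has no peak over 10, while each run of 8 has 1 peak well above the others.

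The q-values also imply read numbers. Each q-value times its place in the list equals 26301 times the tail of a binomial distribution with equal chances for ChIP and input, for whole read numbers, in 5502 of 5502 peaks. With 26300 or 26302 in place of 26301 this held for 0 peaks. The list, 20.9% of 26301 regions, was thus read back into pairs of read numbers, of which the larger is taken as ChIP and the smaller as input after any scaling by the authors. Neither assignment is stated in the list. With a tail that leaves out the observed number, ChIP would be 1 read lower and input 1 read higher. A single pair was found for 543 of the 544 members. The remaining member, from 8028150 to 8028934, allowed either 220 against 51 or 222 against 52 reads and was left out.

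On this reading enrichment at most members was moderate. The median member had 71 ChIP reads (quartiles 52 and 103) and 26 input reads (quartiles 18 and 38.5). The ratio of ChIP to input had a median of 2.69, with quartiles of 2.24 and 3.42 and a range of 1.61 to 12.9. Of the members, 33 (6.08%) had a ratio of at least 5, against 6.42% in the whole list, and a ratio under 2 belonged to 59 (10.9%), against 14.5%. In the other 5 centres 4.90% had a ratio of at least 5 and 22.3% a ratio under 2. On the II arms these shares were 11.6% and 3.38%. The median ratio was 2.42 in the other 5 centres, from 2.20 on X to 2.60 on V, and 3.00 on the II arms. At a fixed q-value limit, a peak of few reads is listed only if its ratio is high. Members under 100 bp wide had medians of 28 ChIP reads, 9 input reads and a ratio of 3.25. Median ChIP reads were 86 in the other 5 centres and 54 on the II arms, in the reverse order of the ratios. How far read numbers account for the differences in ratio was not tested.

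The highest ratio belonged to the second strongest member, the short peak at 11759154, with 348 ChIP and 27 input reads. The strongest member had 542 and 103 reads, a ratio of 5.26. Ratios of 8.93 and 8.56 belonged to the short peaks at 8561195 (268 and 30 reads) and 11967355 (214 and 25 reads). The peak at 10563136 had 322 and 42 reads, a ratio of 7.67, and that from 10868703 to 10869026, with a q-value of 3.21e-21, had 136 and 19 reads, a ratio of 7.16. The 5 peaks with the highest ratios among members of at least 100 reads were 324 to 562 bp wide. Among members of fewer reads, a peak from 9632319 to 9632687, chosen after its values were seen, had 71 ChIP and 7 input reads, a ratio of 10.1. The widest member, at 5660962, had 495 and 185 reads, a ratio of 2.68, close to the median.

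**Figure D5:**
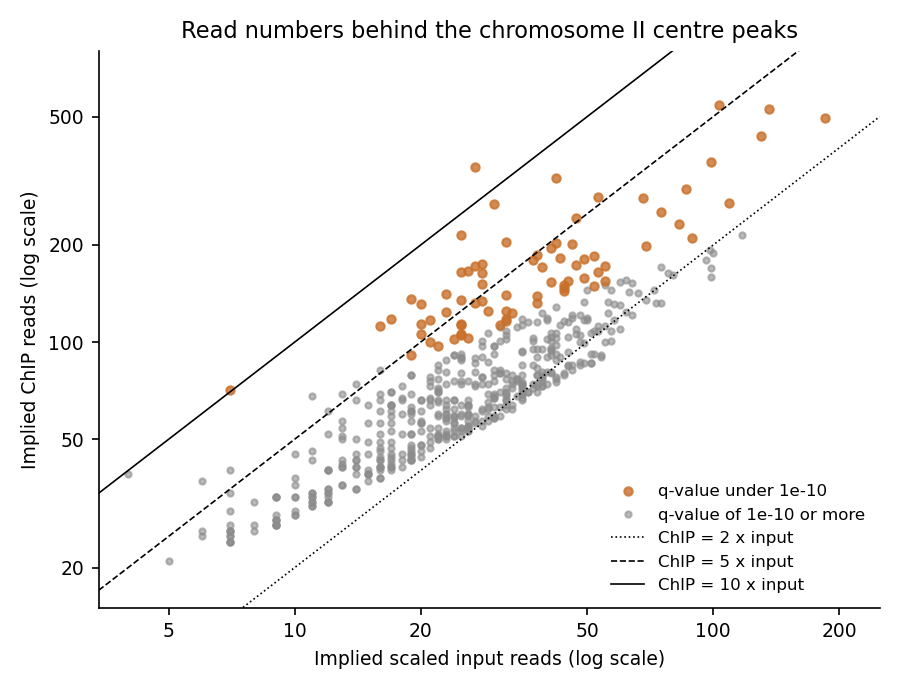
Implied ChIP reads against implied scaled input reads for 543 peaks of the chromosome II centre, both on log scales, with lines at ratios of 2, 5 and 10. Most peaks lie between ratios of 2 and 5, and the 1 peak furthest above the line of 10 is the short peak with 348 ChIP and 27 input reads.

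Summed over called peaks, the members had 91.0 implied input reads per kb of peak, against 103 in the other 5 centres, which ranged from 87.8 on V to 139 on III, and 80.3 on the II arms. Implied ChIP reads per kb of peak were 256 in the II centre, 259 in the other 5 centres and 249 on the II arms. How the authors scaled the input on each chromosome is not given, and its part in the density and in the ratios of the II centre was not tested. Whether the II centre and the II arms shared a scaling factor is also not given, and its part in their difference was not tested. Along the centre, the median ratio of the 1 Mb windows lay between 2.53 in window 2 and 2.94 in window 1. The 14 strong peaks of the 500 kb stretch near the right end had ratios of 2.82 to 12.9. They were chosen by the q-values from which the ratios derive. Strong members of the whole centre with a single read pair had a median ratio of 4.37.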

How the data were processed

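ChIP-seq had been done on embryos of the LIN-13::EGFP strain, with 2 libraries of anti-GFP ChIP DNA and 2 of input DNA. The authors combined both replicates in 1 list of peaks called with PeakSeq in WormBase WS180 coordinates, per the file headers and its name. The deposited values are q-values, 1 for each peak. Which aligner, caller version, filters and scaling of the input were used is not given in the sources used here.

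Peaks were placed by midpoint and widths counted as end minus start plus 1. Centres of the other chromosomes follow the published C. elegans recombination map that also gives the II boundaries, with no conversion between builds. Arms end at the chromosome's last peak. Gaps are the bases between neighbouring peaks of the same centre or arm, and neighbours were sought over the whole chromosome. The deposited q-value, multiplied by its place in the list and divided by a whole number of regions, was matched to a binomial tail with a probability of 0.5 within 1e-11 on the natural log scale, for totals of up to 2500 reads. The members and lists were chosen with earlier results of these data known. Named peaks are the 10 strongest, the 5 widest, the strongest of each 1 Mb window and of each other centre, the closest pair, the ends of the longest gap and the 5 highest ratios among peaks of at least 100 reads. Other peaks were chosen after their values were seen.

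With 1 combined list there is no replicate, so no test was run. Intervals of 95% are exact (Poisson for densities, conditional binomial for their ratios, Clopper-Pearson for shares), cover counting error only and treat peaks as independent. The alternatives were a stricter q-value, merging at 500 bp, a centre of the middle 50%, no peaks under 100 bp, covered base pairs, each other chromosome left out, and other windows and distances. Counting and read recovery were checked on simulated data. Python 3.11.15 with numpy 2.4.6, scipy 1.17.1, pandas 2.3.3 and matplotlib 3.10.9 was used. No WS180 genome or annotation was used here, so no peak was assigned to a gene and no sequence is shown.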

Additional observations from a re-analysis of the deposited data

How the results depend on the processing

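The density ratio of the II centre to the other 5 centres was 1.86 and stayed above 1 in all 11 alternatives, from 1.57 in covered base pairs to 1.99 without chromosome I in the pool. The ratio to the pooled II arms was 0.805 and stayed below 1 in all 6 alternatives. It was 0.915 (0.792 to 1.06) with q-values under 0.001 and 0.895 (0.655 to 1.22) with q-values under 1e-10. In covered base pairs it was 0.957. To the left arm alone the ratio was 1.02 in covered base pairs and 1.05 under 1e-10, and to the right arm 0.873 and 0.731. The cause was not tested. Keeping only q-values under 0.001 left 347 members, with a median width of 331 bp, a median gap of 11251 bp and 20.7% with a neighbour within 2 kb. The gap and the neighbour share depend on the number of peaks, and what moved these values was not tested. Merging at 500 bp gave 24.3% with a neighbour within 2 kb, since it removes the closest neighbours. That share was 11.6% within 1 kb and 62.1% within 5 kb. The fullest over the sparsest window was 1.38 at 1 Mb and 2.52 at 500 kb. The density ratios for q-values under 1e-10 were chosen after seeing the data. With the middle 50% as centre, 490 of its 560 peaks were members. No paired analysis was possible because the authors pooled the replicates in 1 list, and for the same reason none could be left out. Stretches without a peak are stretches without a call at the authors' threshold, at a depth that is not stated, and may still bind LIN-13.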
